A study of Mus musculus with 12 samples.

Results

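The genes described here encode 41 enzymes and transporters that build and sulfate the sugar chains of proteoglycans, the glycosaminoglycans. They were taken as a list of gene symbols that no measured value defined, though it was chosen with earlier results of these data known. Of the 41, 25 had a probe that named the gene and was above background on 3 or more of 12 arrays, through 32 probes of 12023 tested. The other 16 (Ugdh, Uxs1, Slc35d1, Xylt1, Csgalnact2, Chsy1, Chsy3, Chpf2, Chst13, Chst14, Dse, Ust, Ndst1, Hs6st1, Hs6st2 and Slc26a2) were not analysed here. One filter on low values applied to all probes, so the 25 are the measured genes and not the whole list, and a gene could enter through 1 genotype alone.

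The series followed mice with Schmid metaphyseal chondrodysplasia, a growth disorder caused by mutant collagen X that misfolds in hypertrophic chondrocytes and stresses their endoplasmic reticulum. Entire hypertrophic zones, the layer of enlarged chondrocytes at the base of the growth plate, were cut by hand from 1 proximal tibia of each of 12 mice 2 weeks old, on a mixed background, and their RNA was amplified and hybridised to MouseWG-6 v2 arrays. There were 4 genotypes with 3 mice each: wildtype (Wt), ColXN617K with the asparagine to lysine substitution in collagen X, Xbp1CartΔEx2 in which exon 2 of Xbp1 was deleted by Cre in Col2a1-expressing cells, and the compound mutant C/X with both changes. XBP1 is a transcription factor of the unfolded protein response that is switched on by splicing of its own mRNA when the endoplasmic reticulum is stressed. The deletion was made in Col2a1-expressing cells, and any other cells in a zone kept an intact Xbp1.

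A proteoglycan is a core protein with glycosaminoglycan chains attached, and in cartilage the chondroitin sulfate chains of aggrecan hold the water that resists compression. Chondroitin and heparan chains both begin with the same linker of xylose, galactose, galactose and glucuronic acid, made in the endoplasmic reticulum and Golgi, and then part ways into polymerisation, epimerisation and sulfation. Sulfation needs PAPS, the activated form of sulfate, and loss of sulfate supply or of linker enzymes is known to cause skeletal disease. The measured genes were 1 of 4 for UDP-sugar supply, 5 of 6 for the linker, 2 of 6 for the chondroitin chain, 5 of 9 for chondroitin and dermatan modification, 7 of 10 for the heparan chain and its modification, 4 of 5 for sulfate supply and 1 of 1 for hyaluronan.

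All values are normalized log2 intensities of the brightest tested probe of a gene unless another probe is named, differences are given with the standard error of limma's fit, and each group had 3 mice. A difference passed when it was 2-fold or more with an adjusted p of 0.01 or less over all 12023 probes. Levels of different probes are not set against each other, because probe brightness differs. The share of probes above background lay between 17.1% and 28.4% over the arrays, and ColXN617K 3 and C/X 3 stood apart from the other mutant arrays at 17.1% and 17.2%. Their lowest correlations with an array of their own genotype were 0.867 and 0.915 over all tested probes, the same pairs that gave the lowest values for ColXN617K 2 and C/X 2. The lowest signal counted as above background also differed. It was 7.625 to 7.675 on the Wt arrays, 7.143 to 7.413 on Xbp1CartΔEx2, 6.895 to 7.702 on ColXN617K and 7.066 to 7.682 on C/X. A reading could thus count as above background on a mutant array and not on a Wt array. The collagen X probe (Col10a1) averaged 12.06 in Wt, 11.68 in Xbp1CartΔEx2, 8.98 in C/X and 8.90 in ColXN617K, while the position of the Xbp1 probe relative to exon 2 is not given in the sources used here and it checks no label.

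Markers of the zone moved with the genotypes. Of all tested probes 7.16% were lower in ColXN617K versus Wt, 5.21% in C/X versus Wt and 7.6% in C/X versus Xbp1CartΔEx2. Of 8 measured chondrocyte markers none passed in ColXN617K versus Wt, 1 was lower in C/X versus Wt and 2 were lower in C/X versus Xbp1CartΔEx2, and the log2 of their summed intensity was 16.33 to 16.39 in Wt, 16.27 to 16.46 in Xbp1CartΔEx2, 15.71 to 16.04 in C/X and 15.95 to 16.36 in ColXN617K. Hypertrophic chondrocyte markers were lower for 4 of 4 in ColXN617K and 3 of 4 in C/X, with a log2 of their summed intensity of 15.14 to 15.24 in Wt, 15.17 to 15.45 in Xbp1CartΔEx2, 13.45 to 13.79 in C/X and 12.70 to 12.96 in ColXN617K. Endothelial markers were lower for 6 of 8 in both collagen X mutants, and the log2 of their summed intensity was 12.27 to 13.39 in Wt, 13.49 to 14.38 in Xbp1CartΔEx2, 10.09 to 10.21 in ColXN617K and 10.38 to 11.53 in C/X. Cdh5 was above background on 3 of 3 Wt and 0 of 6 collagen X mutant arrays, and Pecam1 on 0 of 3 and 0 of 6. Vwf went the other way and passed as higher in C/X versus Wt, at 6.84 in Wt, 6.91 in Xbp1CartΔEx2, 8.37 in C/X and 7.82 in ColXN617K, and it was above background on 0, 0, 3 and 3 arrays. Osteoclast and macrophage markers were lower for 3 of 4 in ColXN617K and 1 of 4 in C/X (log2 of the sum 14.55 to 15.05 in Wt, 14.93 to 15.17 in Xbp1CartΔEx2, 12.56 to 13.32 in ColXN617K and 12.98 to 14.43 in C/X), erythroid markers for 3 of 4 in both (13.97 to 14.70, 12.28 to 12.59, 11.04 to 12.91 and 10.48 to 11.46), and osteoblast markers for 1 of 5 in both (12.41 to 13.09, 13.40 to 14.59, 11.38 to 12.03 and 10.88 to 11.90). Fewer cells of a type and less RNA per cell cannot be told apart in these zones, and the part of the cell mixture in the enzyme results below was not tested.

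Of the 25 enzymes 7 (28%) passed in ColXN617K versus Wt, the effect of the collagen X mutation where XBP1 was present, against 14.5% of all tested probes. Of the 7, Extl2 and Papss2 rose and Xylt2, Chst15, B3gat3 and Chst12 fell, where 7.31% of all probes rose and 7.16% fell. The seventh, B4galt7, passed as higher on readings near background in which no rise is resolved. In C/X versus Wt 6 of 25 passed (24%, against 11.7% of all probes, 6.52% higher and 5.21% lower), with B3galt6, Extl2 and Glce higher and Chst15, Has2 and Fam20b lower. Between C/X and Xbp1CartΔEx2, the effect of the mutation where XBP1 was inactive, 6 of 25 passed (24%, against 13.7%, 6.06% higher and 7.6% lower), with B3gat3 and Impad1 higher and Chst15, Ugp2, Chst7 and Chst3 lower. The probes of Chst7 and Chst3 entered the tested set only with the Xbp1CartΔEx2 arrays. In Xbp1CartΔEx2 versus Wt 1 of 25 passed (4%, against 1.76%, 1.17% higher), B3galt6, which rose. Between the collagen X mutants 2 of 25 passed (8%, against 5.26%, 3.34% lower), B3gat3 and Chst12, both lower in ColXN617K than in C/X. The comparisons with Wt share the Wt arrays, and those with C/X share the C/X arrays, while ColXN617K versus Wt and C/X versus Xbp1CartΔEx2 share none.

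At an adjusted p of 0.05 with no fold minimum the counts were 12 of 25 in ColXN617K versus Wt (30.1% of all probes), 12 in C/X versus Wt (25.7%), 2 in Xbp1CartΔEx2 versus Wt (7.14%), 12 in C/X versus Xbp1CartΔEx2 (26.3%) 7 in ColXN617K versus C/X (15%) and, for the interaction, 2 (7.45%). All 3 arrays of one genotype lay apart from all 3 of the other for 14 of 25 in ColXN617K versus Wt (40.8% of all probes), 15 in C/X versus Wt (43.6%), 9 in Xbp1CartΔEx2 versus Wt (36.7%), 18 in C/X versus Xbp1CartΔEx2 (44.3%) and 11 in ColXN617K versus C/X (30.1%). With 1 array left out at a time the counts at the stricter criteria ran from 4 to 8 in ColXN617K versus Wt, 2 to 9 in C/X versus Wt, 2 to 7 in C/X versus Xbp1CartΔEx2, 0 to 1 in Xbp1CartΔEx2 versus Wt and 1 to 4 in ColXN617K versus C/X. Without both ColXN617K 3 and C/X 3, a setting chosen after seeing the data, 8, 10, 8, 1 and 4 passed in ColXN617K versus Wt, C/X versus Wt, C/X versus Xbp1CartΔEx2, Xbp1CartΔEx2 versus Wt and ColXN617K versus C/X, where 27.8%, 20.6%, 19.8%, 5.67% and 8.48% of all probes did. Counted only over probes above background on 1 array or more of each genotype compared, also chosen after seeing the data, 6 of 21 enzymes passed in ColXN617K versus Wt (14% of such probes), 5 of 21 in C/X versus Wt (10.5%), 4 of 22 in C/X versus Xbp1CartΔEx2 (12.4%), 0 of 22 in Xbp1CartΔEx2 versus Wt (1.16%) and 2 of 23 in ColXN617K versus C/X (5.41%).

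Of the 27 passing differences given below, second probes included, all kept their direction but 21 missed the criteria with no background correction, 24 with scaling by array medians and 7 with cyclic loess.

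**Figure D1:**
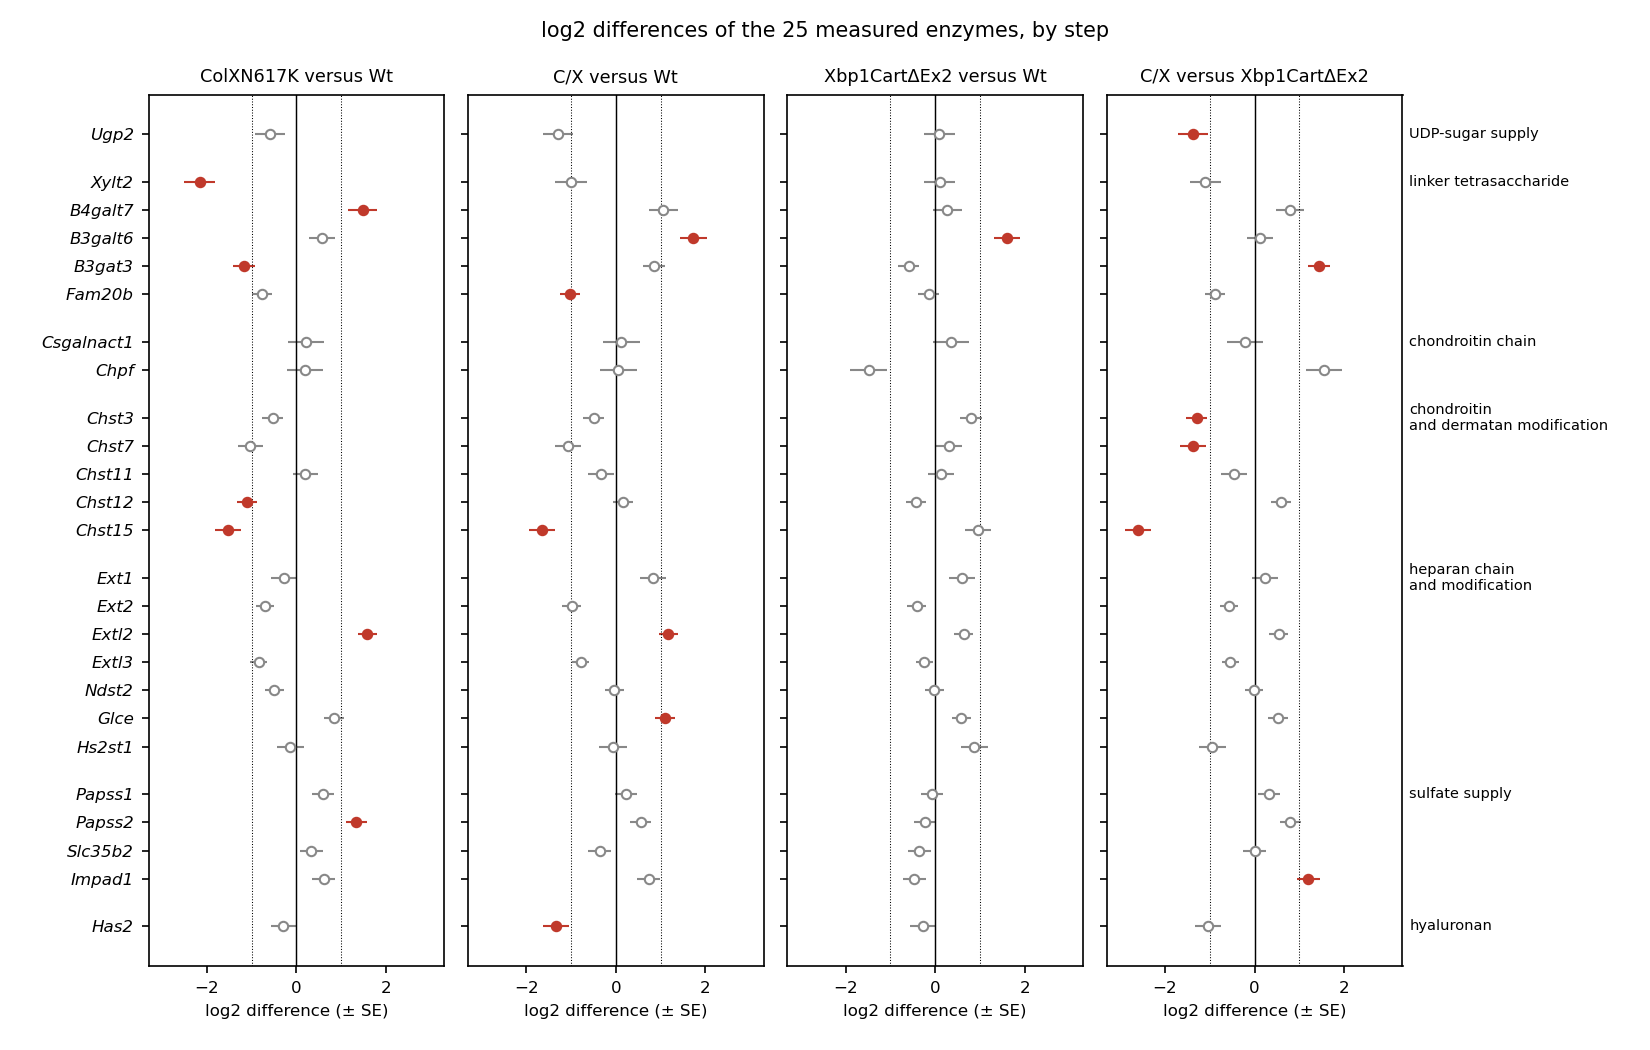
Difference between 2 genotypes (x axis, log2, ± standard error of the fit) for each of the 25 measured enzymes (rows, grouped by step), in 4 comparisons. Filled red points passed (2-fold or more, dotted lines, and adjusted p of 0.01 or less), as 7, 6, 1 and 6 of 25 did from left to right, and filled points lie on both sides of 0 in each of the 3 comparisons with a collagen X mutation.

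Of 5 measured linker enzymes, 1 passed as higher (B4galt7, near background) and 2 as lower in ColXN617K versus Wt, and 1 as higher and 1 as lower in C/X versus Wt, where 7.31% and 7.16%, and 6.52% and 5.21%, of all probes did. Xylt2, a xylosyltransferase, attaches the xylose that starts a chain to the core protein. Its values were 11.21, 10.46 and 10.82 in Wt, 11.17, 10.69 and 10.93 in Xbp1CartΔEx2, 8.53, 8.03 and 9.46 in ColXN617K and 9.55, 9.63 and 10.30 in C/X. The ColXN617K arrays lay below all arrays of the 3 other genotypes, and the C/X arrays lay between ColXN617K and the XBP1-only and wildtype groups without touching either. It fell 4.46-fold in ColXN617K versus Wt (-2.16 ± 0.35, adjusted p = 0.000665), and the call held with each of the 12 arrays left out (adjusted p up to 0.00467), although it was missed with scaling by array medians, at -1.24 (adjusted p = 0.0105). The difference was -1.0 ± 0.35 (adjusted p = 0.052) in C/X versus Wt and -1.10 ± 0.35 (adjusted p = 0.0337) in C/X versus Xbp1CartΔEx2, short of the criteria. Without ColXN617K 3, the highest of its group at 9.46, it was -2.55 (adjusted p = 7.26e-05) in ColXN617K versus Wt.

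Fam20b, the kinase that phosphorylates the linker xylose, was 11.57, 11.68 and 11.55 in Wt, 11.51, 11.30 and 11.56 in Xbp1CartΔEx2, 10.54, 10.67 and 11.31 in ColXN617K and 10.29, 10.73 and 10.70 in C/X. No C/X array reached the lowest Wt or Xbp1CartΔEx2 array, while ColXN617K 3 at 11.31 was level with the lowest Xbp1CartΔEx2 array at 11.30. It fell 2.04-fold in C/X versus Wt (-1.03 ± 0.23, adjusted p = 0.00593), just past the fold criterion, and the call was lost without Wt 1, 2 or 3, Xbp1CartΔEx2 3 or C/X 1 or 2 (log2 difference -1.11 to -0.89, adjusted p 0.0106 to 0.0349). In ColXN617K versus Wt the difference was -0.76 ± 0.23 (adjusted p = 0.0236), which did not pass.

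B4galt7 adds the first galactose, and its probe was above background on 0 Wt and 0 Xbp1CartΔEx2 arrays and on 2 of 3 arrays of each collagen X mutant. It read 6.42, 5.99 and 6.07 in Wt, 6.12, 6.69 and 6.48 in Xbp1CartΔEx2, 8.07, 8.0 and 6.85 in ColXN617K and 7.44, 7.40 and 6.83 in C/X. All 6 collagen X mutant arrays were higher than all 6 others, and ColXN617K 3 and C/X 3, on which it was not above background, were the lowest of the 6. It passed as higher in ColXN617K versus Wt, with means of 7.64 and 6.16 and an adjusted p of 0.00446, but its probe entered the tested set through 4 collagen X mutant arrays alone and the bound set by the background was under 1, so no fold is given and no rise is resolved. The call in ColXN617K versus Wt was lost without Wt 2 or 3 or ColXN617K 1 or 2 (1.26 to 1.43, adjusted p 0.018 to 0.0239).

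B3galt6, which adds the second galactose, was above background on 0 of 3 Wt arrays and on all 9 mutant arrays. ColXN617K 1 counted as above background although Wt 2 and 3 read higher, since the lowest detected signal was higher on the Wt arrays. The probe gave 7.0, 7.33 and 7.57 in Wt, 8.80, 8.95 and 8.97 in Xbp1CartΔEx2, 7.17, 8.47 and 7.98 in ColXN617K and 8.84, 8.98 and 9.28 in C/X. Xbp1CartΔEx2 and C/X lay between 8.80 and 9.28, every one of their 6 arrays above every Wt and ColXN617K array. It rose in both groups without XBP1: at least 2.62-fold higher in C/X than in Wt (1.73 ± 0.29, adjusted p = 0.00119) and at least 2.4-fold higher in Xbp1CartΔEx2 than in Wt (1.61 ± 0.29, adjusted p = 0.00839), where the bound sets the mutant mean against the mean of the lowest detected signal on the Wt arrays, or of the probe's own value where that was higher. In ColXN617K versus Wt the difference was 0.57 ± 0.29 (adjusted p = 0.154), and in ColXN617K versus C/X it was -1.16 ± 0.29 (adjusted p = 0.0201). The call in C/X versus Wt held with each of the 12 arrays left out (adjusted p up to 0.00754), and it was lost with no background correction, at 0.80 (adjusted p = 0.00108), with cyclic loess, at 1.43 (adjusted p = 0.0159), and with scaling by array medians, at 1.96 (adjusted p = 0.0524). Without Wt 1, 2 or 3, Xbp1CartΔEx2 1, 2 or 3 or C/X 1 or 2 the difference in Xbp1CartΔEx2 versus Wt was 1.46 to 1.74 and missed the criteria (adjusted p 0.0132 to 0.0414).

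B3gat3, the glucuronyltransferase that completes the linker, showed the widest split between the collagen X mutants among the 25 enzymes. The 12 values were 8.70, 8.39 and 8.33 in Wt, 8.45, 7.65 and 7.54 in Xbp1CartΔEx2, 7.36, 7.16 and 7.38 in ColXN617K and 9.43, 9.17 and 9.37 in C/X. C/X was the highest group and ColXN617K the lowest, with no overlap between those 2 or between either and Wt. It fell 2.26-fold in ColXN617K versus Wt (-1.17 ± 0.24, adjusted p = 0.00342) and rose 2.72-fold in C/X versus Xbp1CartΔEx2 (1.45 ± 0.24, adjusted p = 0.000935), and ColXN617K was 4.06-fold lower than C/X (-2.02 ± 0.24, adjusted p = 0.000381). The effect of the collagen X mutation with XBP1 minus that without it, the interaction, was -2.62 ± 0.34 (adjusted p = 0.00174), and the call held with each of the 12 arrays left out (adjusted p up to 0.0083), but not with scaling by array medians, at -1.83 (adjusted p = 0.129). In ColXN617K versus Wt the criteria were missed without Wt 1 or ColXN617K 1 or 2 (-1.21 to -1.06, adjusted p 0.0117 to 0.0188). In Xbp1CartΔEx2 versus Wt the difference was -0.60 ± 0.24 (adjusted p = 0.167), and in C/X versus Wt it was 0.85 ± 0.24 (adjusted p = 0.0227).

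**Figure D2:**
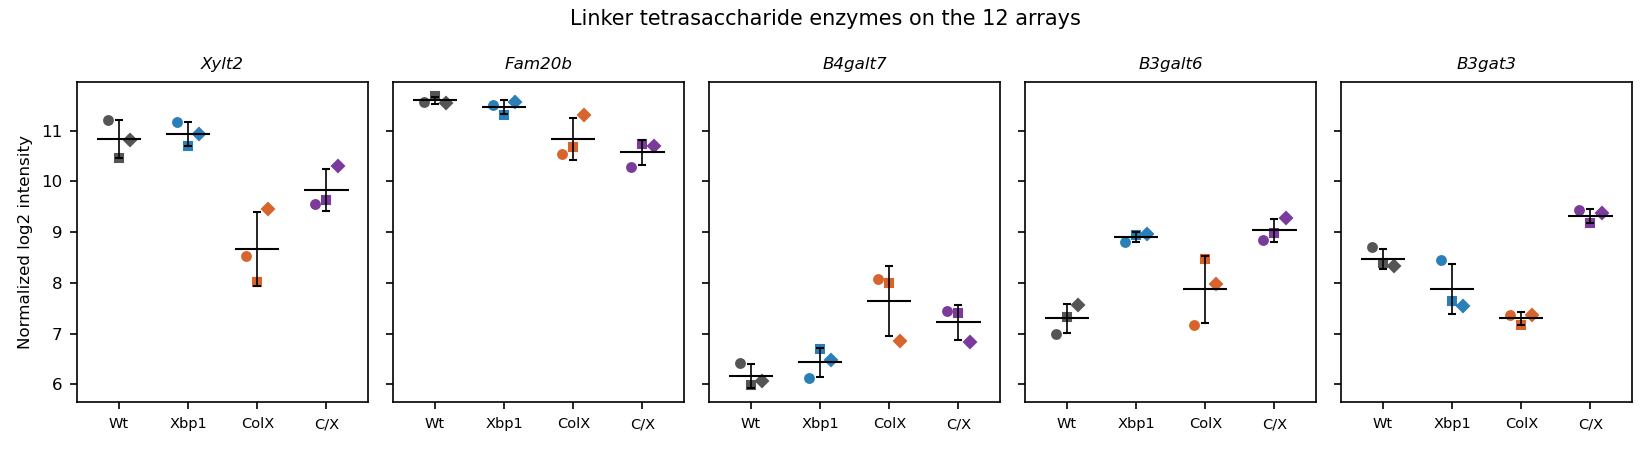
Normalized log2 intensity (y axis) of the 5 measured linker enzymes on each of the 12 arrays, by genotype (x axis: Wt, Xbp1CartΔEx2, ColXN617K and C/X). Circle, square and diamond are mice 1, 2 and 3, horizontal bars are means and whiskers 1 SD (n = 3). B3galt6 lies high in both groups without XBP1, and B3gat3 lies near 7.30 in ColXN617K and 9.32 in C/X.

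Promoter sequences were searched for elements that bind factors of the unfolded protein response. RefSeq windows of 250 bases before to 50 after a gene's start (GRCm38.p6) were at hand for 32 of the 41 genes, in 40 windows. The endoplasmic reticulum stress element ERSE was in 0 of the 32 (0.119% of all 32851 windows on either strand), its short form ERSE-II in 0 (0.0365%), TGACGTGG, the core of the XBP1 element of the UPRE, in 0 (0.676%), and TGATGNAA, the C/EBP-ATF composite element, in 0 (3.97%). A missing match says only that these letters are not in this window. CCACG, the end of the ERSE that XBP1 and ATF6 contact, was searched after the values were seen and overlaps the ERSE and ERSE-II letters. On either strand it was in 23 of the 40 windows and in 32.8% of all windows, without regard to base composition. The 250 bases before the start of B3gat3 and of Chst12 are shown because only these enzymes passed the interaction, with CCACG or its reverse complement in capitals.
B3gat3 (GRCm38.p6, chr19:8920143-8920392, plus strand): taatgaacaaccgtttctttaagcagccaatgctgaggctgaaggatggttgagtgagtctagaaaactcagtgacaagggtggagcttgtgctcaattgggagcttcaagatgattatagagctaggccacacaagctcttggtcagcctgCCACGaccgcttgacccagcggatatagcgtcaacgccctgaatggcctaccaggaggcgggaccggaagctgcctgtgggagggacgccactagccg
Chst12 (GRCm38.p6, chr5:140505359-140505608, plus strand): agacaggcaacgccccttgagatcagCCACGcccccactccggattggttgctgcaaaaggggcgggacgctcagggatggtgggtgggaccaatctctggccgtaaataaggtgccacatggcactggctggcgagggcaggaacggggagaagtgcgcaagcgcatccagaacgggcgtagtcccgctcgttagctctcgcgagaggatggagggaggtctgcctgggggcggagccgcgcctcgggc
Each printed stretch holds 1 such match, a description of the letters and not a binding site.

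Of the chondroitin chain only Csgalnact1, which starts the chain with N-acetylgalactosamine, and Chpf, the polymerising factor that works with chondroitin synthases, were measured, and neither passed in any comparison. Chpf averaged 9.50 ± 0.55 (SD) in Wt, 8.01 ± 0.82 in Xbp1CartΔEx2, 9.56 ± 0.48 in C/X and 9.69 ± 0.30 in ColXN617K. All 3 Xbp1CartΔEx2 arrays, at 7.13, 8.16 and 8.74, were below the other 9. The difference was -1.49 ± 0.41 (adjusted p = 0.0462) in Xbp1CartΔEx2 versus Wt and 1.55 ± 0.41 (adjusted p = 0.0137) in C/X versus Xbp1CartΔEx2, each over 2-fold with an adjusted p above 0.01. Csgalnact1 differed by at most 0.34 ± 0.40 (adjusted p = 0.657), in Xbp1CartΔEx2 versus Wt.

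Of 5 measured sulfotransferases of chondroitin and dermatan, 2 fell in ColXN617K versus Wt, 1 in C/X versus Wt and 3 in C/X versus Xbp1CartΔEx2, where 7.16%, 5.21% and 7.6% of all probes did, and none passed as higher. Of the 3, Chst3 and Chst7 entered the tested set only with the Xbp1CartΔEx2 arrays. Chst15 adds a further sulfate to already sulfated N-acetylgalactosamine, giving highly sulfated chondroitin. It was 9.10, 8.34 and 9.45 in Wt, 10.04, 10.09 and 9.62 in Xbp1CartΔEx2, 7.63, 7.70 and 7.0 in ColXN617K and 7.33, 7.19 and 7.43 in C/X. The highest collagen X mutant array, at 7.70, was below the lowest Wt array, at 8.34, and the Xbp1CartΔEx2 arrays were all above Wt. It fell 2.87-fold in ColXN617K versus Wt (-1.52 ± 0.29, adjusted p = 0.002), 3.13-fold in C/X versus Wt (-1.65 ± 0.29, adjusted p = 0.00147) and 6.05-fold in C/X versus Xbp1CartΔEx2 (-2.60 ± 0.29, adjusted p = 5.93e-05). The calls in C/X versus Wt and C/X versus Xbp1CartΔEx2 held with each of the 12 arrays left out, with adjusted p up to 0.00838 and 0.000541, but the former was lost with no background correction, at -0.77 (adjusted p = 0.00294), and with scaling by array medians, at -0.99 (adjusted p = 0.202). Leaving out Wt 1 or 3 ended the call in ColXN617K versus Wt (-1.45 to -1.28, adjusted p 0.0108 to 0.0109). The higher level of Xbp1CartΔEx2 over Wt, 0.95 ± 0.29 (adjusted p = 0.0706), did not pass.

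Chst3 and Chst7 sulfate chondroitin at the 6-O position of N-acetylgalactosamine. Chst3 was above background on all Xbp1CartΔEx2 arrays, on 1 ColXN617K array and on no Wt or C/X array, and read 7.47, 6.92 and 7.44 in Wt, 8.40, 8.15 and 7.68 in Xbp1CartΔEx2, 6.74, 6.93 and 6.57 in ColXN617K and 6.59, 6.80 and 6.97 in C/X. Chst7 read 8.46, 7.44 and 8.13 in Wt, 8.33, 8.41 and 8.21 in Xbp1CartΔEx2, 6.65, 6.77 and 7.52 in ColXN617K and 7.07, 6.82 and 6.93 in C/X and was above background on 2 Wt, 3 Xbp1CartΔEx2 and 0 collagen X mutant arrays. For both, the 3 Xbp1CartΔEx2 arrays lay above all collagen X mutant arrays. Each passed as lower in C/X than in Xbp1CartΔEx2, Chst3 at least 1.72-fold (-1.29 ± 0.24, adjusted p = 0.00169) and Chst7 at least 2.03-fold (-1.38 ± 0.28, adjusted p = 0.00342). Without the Xbp1CartΔEx2 arrays, where both were highest, neither probe was above background on 3 arrays. These 2 calls are therefore not read as support, and the bound for Chst3 was under 2-fold. For Chst3 the call was lost without C/X 1 (log2 difference -1.20, adjusted p 0.0114). For Chst7 the call was lost without Xbp1CartΔEx2 1, 2 or 3 or C/X 1 or 2 (log2 difference -1.44 to -1.32, adjusted p 0.0114 to 0.0155). Without ColXN617K 3, Chst7 also passed in ColXN617K versus Wt and C/X versus Wt, where with all arrays the adjusted p was 0.0162 and 0.0156.

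Chst11 and Chst12 sulfate the 4-O position instead. Chst12 was 8.72, 8.47 and 8.13 in Wt, 8.26, 7.99 and 7.78 in Xbp1CartΔEx2, 7.25, 7.23 and 7.55 in ColXN617K and 8.73, 8.73 and 8.32 in C/X. The ColXN617K arrays were all below those of the other genotypes, and C/X overlapped Wt. It fell 2.14-fold in ColXN617K versus Wt (-1.10 ± 0.22, adjusted p = 0.003) and was 2.38-fold lower in ColXN617K than in C/X (-1.25 ± 0.22, adjusted p = 0.00355), with an interaction of -1.69 ± 0.31 (adjusted p = 0.00966). With the mouse number as a block the interaction missed the criteria, at -1.69 (adjusted p = 0.0106). The difference in C/X versus Xbp1CartΔEx2 was 0.59 ± 0.22 (adjusted p = 0.0698). The interaction kept its call without ColXN617K 3, whereas without each of the 11 other arrays (Wt 1, 2 and 3, Xbp1CartΔEx2 1, 2 and 3, ColXN617K 1 and 2, and C/X 1, 2 and 3) it was between -1.84 and -1.55 with an adjusted p of 0.0103 to 0.0352. The call in ColXN617K versus Wt was lost without Wt 1 or 2 or ColXN617K 1 or 2 (-1.08 to -0.96, adjusted p 0.0109 to 0.0171). Without ColXN617K 1 or 2 or C/X 1 or 2 the difference in ColXN617K versus C/X was -1.20 to -1.18 and missed the criteria (adjusted p 0.0161 to 0.0197).

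The 2 probes of Chst11 disagreed. The brighter one averaged 9.58 ± 0.29 (SD) in Wt and 9.25 ± 0.44 in C/X, a difference of -0.32 ± 0.29 (adjusted p = 0.439). The other (ILMN_1215528) read 10.07, 9.38 and 9.54 in Wt, 9.14, 8.91 and 9.19 in Xbp1CartΔEx2, 9.46, 9.13 and 8.77 in ColXN617K and 8.85, 8.47 and 7.62 in C/X. On that probe all C/X arrays were below all Wt arrays, and C/X 3 was the lowest of the 12. It was 2.55-fold lower in C/X than in Wt (-1.35 ± 0.31, adjusted p = 0.00767). In C/X versus Wt the criteria were missed without Wt 1, 2 or 3, Xbp1CartΔEx2 1, 2 or 3, ColXN617K 2 or C/X 2 or 3 (-1.49 to -1.0, adjusted p 0.011 to 0.0369).

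UDP-sugar supply was represented by Ugp2 alone, which makes UDP-glucose. It was 10.38, 11.07 and 10.81 in Wt, 11.18, 10.10 and 11.26 in Xbp1CartΔEx2, 10.50, 10.43 and 9.55 in ColXN617K and 9.48, 9.41 and 9.52 in C/X. The C/X arrays were close together and lower than every other array, with ColXN617K 3 next at 9.55 and Xbp1CartΔEx2 2 the lowest of its group at 10.10. It fell 2.60-fold in C/X versus Xbp1CartΔEx2 (-1.38 ± 0.34, adjusted p = 0.00942), and the difference in C/X versus Wt was -1.28 ± 0.34 (adjusted p = 0.0151). With the mouse number as a block the former was -1.38 (adjusted p = 0.0145) and missed the criteria, and without Xbp1CartΔEx2 2 it was -1.75 (adjusted p = 0.00238). Leaving out Wt 1, 2 or 3, Xbp1CartΔEx2 1 or 3, ColXN617K 1 or 2 or C/X 1, 2 or 3 ended the call in C/X versus Xbp1CartΔEx2 (-1.40 to -1.17, adjusted p 0.0114 to 0.0491).

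Has2, a hyaluronan synthase that extrudes an unsulfated chain without core protein, was 9.75, 10.19 and 9.93 in Wt, 10.02, 9.05 and 9.97 in Xbp1CartΔEx2, 9.78, 9.85 and 9.38 in ColXN617K and 8.89, 8.80 and 8.20 in C/X. C/X was the lowest group and did not overlap any other. It fell 2.51-fold in C/X versus Wt (-1.33 ± 0.29, adjusted p = 0.00559), and the difference between ColXN617K and C/X was 1.04 ± 0.29 (adjusted p = 0.0307). The call in C/X versus Wt was lost without Wt 1, 2 or 3 or C/X 1, 2 or 3 (-1.46 to -1.11, adjusted p 0.0119 to 0.0246).

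In the heparan branch 1 of 7 measured genes passed in ColXN617K versus Wt (14.3%, against 14.5% of all probes) and 2 of 7 in C/X versus Wt (28.6%, against 11.7%), all higher on the brightest probe, while a second probe of Extl3 passed as lower. Extl2 transfers an N-acetylhexosamine that can stop a linker from being extended. It read 8.93, 9.20 and 9.69 in Wt, 9.92, 9.92 and 9.88 in Xbp1CartΔEx2, 10.70, 10.80 and 11.06 in ColXN617K and 10.29, 10.55 and 10.50 in C/X. Both collagen X mutants lay above every Wt and Xbp1CartΔEx2 array, ColXN617K higher than C/X. It rose 2.99-fold in ColXN617K versus Wt (1.58 ± 0.21, adjusted p = 0.000204) and 2.25-fold in C/X versus Wt (1.17 ± 0.21, adjusted p = 0.00194). The first call held with each of the 12 arrays left out (adjusted p up to 0.00132). Without Wt 1 or C/X 2 the difference in C/X versus Wt was 1.00 to 1.12 and missed the criteria (adjusted p 0.0104 to 0.0105). In C/X versus Xbp1CartΔEx2 the difference was 0.54 ± 0.21 (adjusted p = 0.0841), and in Xbp1CartΔEx2 versus Wt it was 0.63 ± 0.21 (adjusted p = 0.0992).

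Glce, the epimerase that turns glucuronic into iduronic acid in heparan, was 9.51, 10.07 and 10.12 in Wt, 10.56, 10.34 and 10.55 in Xbp1CartΔEx2, 10.72, 10.55 and 10.97 in ColXN617K and 10.95, 10.77 and 11.27 in C/X. All mutant arrays of the 3 genotypes lay above the Wt arrays. It rose 2.14-fold in C/X versus Wt (1.10 ± 0.22, adjusted p = 0.0035), while ColXN617K versus Wt gave 0.85 ± 0.22 (adjusted p = 0.0127). In C/X versus Wt the criteria were missed without Wt 1 or C/X 1 or 3 (0.91 to 1.12, adjusted p 0.011 to 0.0177). Without both ColXN617K 3 and C/X 3 it was 0.96 (adjusted p = 0.00323) and missed the fold of 2.

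Ext1 and Ext2, which form the heparan polymerase, did not pass in any comparison. Ext1 averaged 10.24 ± 0.22 (SD) in Wt, 10.84 ± 0.48 in Xbp1CartΔEx2, 11.07 ± 0.11 in C/X and 9.96 ± 0.52 in ColXN617K. Ext2 averaged 11.38 ± 0.28, 10.97 ± 0.15, 10.40 ± 0.27 and 10.68 ± 0.11 in the same order. Every array of both collagen X mutants was below every Wt array for Ext2, and its difference in C/X versus Wt, -0.99 ± 0.21 (adjusted p = 0.00484), missed the fold of 2 at 1.98-fold. Ext1 in ColXN617K versus C/X gave -1.11 ± 0.29 (adjusted p = 0.0228).

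Extl3 starts the heparan chain on the linker and had 3 tested probes. Its brightest probe averaged 10.30 ± 0.07 (SD) in Wt, 10.06 ± 0.18 in Xbp1CartΔEx2, 9.51 ± 0.21 in C/X and 9.45 ± 0.16 in ColXN617K. The collagen X mutants were below Wt without overlap, with differences of -0.84 ± 0.19 (adjusted p = 0.00559) in ColXN617K and -0.78 ± 0.19 (adjusted p = 0.00976) in C/X, each under 2-fold. A second probe (ILMN_3001452) read 10.40, 10.11 and 10.30 in Wt, 10.30, 10.21 and 10.12 in Xbp1CartΔEx2, 8.54, 8.54 and 9.90 in ColXN617K and 9.69, 9.50 and 9.87 in C/X. ColXN617K 1 and 2 were far below the third mouse of that genotype on it. It was 2.42-fold lower in ColXN617K than in Wt (-1.28 ± 0.31, adjusted p = 0.00902). Leaving out Wt 1, 2 or 3, Xbp1CartΔEx2 1, 2 or 3, ColXN617K 1 or 2 or C/X 1 or 2 ended the call in ColXN617K versus Wt (-1.35 to -1.05, adjusted p 0.0126 to 0.0442). With ColXN617K 3 left out the difference was -1.73 (adjusted p = 5.11e-05).

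Ndst2, which replaces the acetyl group of heparan with sulfate, did not pass, with group means of 8.72, 8.70, 8.23 and 8.69 in Wt, Xbp1CartΔEx2, ColXN617K and C/X. Hs2st1, the 2-O-sulfotransferase of heparan, had 2 probes. On the brighter one the difference in C/X versus Xbp1CartΔEx2 was -0.94 ± 0.31 (adjusted p = 0.0396). The other (ILMN_2777202) read 7.40, 7.04 and 8.84 in Wt, 8.89, 9.29 and 8.95 in Xbp1CartΔEx2, 6.70, 6.95 and 7.73 in ColXN617K and 7.24, 7.16 and 6.98 in C/X. Xbp1CartΔEx2 was high on all 3 arrays, Wt spread over a wide range with Wt 3 near the Xbp1CartΔEx2 arrays, and the collagen X mutants were low. It was 3.78-fold lower in C/X than in Xbp1CartΔEx2 (-1.92 ± 0.40, adjusted p = 0.00385). The call in C/X versus Xbp1CartΔEx2 was lost without Xbp1CartΔEx2 1, 2 or 3 or C/X 1, 2 or 3 (-1.99 to -1.79, adjusted p 0.0113 to 0.0189).

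All 4 measured genes of sulfate supply had positive differences in ColXN617K versus Wt, between 0.33 and 1.34, although only Papss2 passed. Papss2, one of the pair of synthases that make PAPS and the one tied to skeletal disease when lost, was 11.27, 11.59 and 11.27 in Wt, 11.51, 10.67 and 11.25 in Xbp1CartΔEx2, 12.84, 12.90 and 12.42 in ColXN617K and 11.93, 11.90 and 11.98 in C/X. ColXN617K was highest, C/X came next with its 3 arrays within 0.1 of each other, and neither overlapped Wt or Xbp1CartΔEx2. It rose 2.53-fold in ColXN617K versus Wt (1.34 ± 0.23, adjusted p = 0.00117), and the call held with each of the 12 arrays left out (adjusted p up to 0.00692). In C/X versus Xbp1CartΔEx2 the difference was 0.79 ± 0.23 (adjusted p = 0.0251). Its second probe (ILMN_2638349) was dimmer, and the mean of both probes gave 0.94 (adjusted p = 0.00815) in ColXN617K versus Wt, under 2-fold.

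Papss1, the other synthase, averaged 10.17 ± 0.09 (SD) in Wt, 10.09 ± 0.32 in Xbp1CartΔEx2, 10.40 ± 0.42 in C/X and 10.76 ± 0.20 in ColXN617K, and its difference in ColXN617K versus Wt was 0.58 ± 0.24 (adjusted p = 0.0894). All 3 ColXN617K arrays lay above all 3 Wt arrays. Slc35b2, the transporter that carries PAPS into the Golgi, averaged 11.65, 11.29, 11.97 and 11.29 in Wt, Xbp1CartΔEx2, ColXN617K and C/X and passed in no comparison. Impad1, a Golgi phosphatase that clears the by-product of sulfation, was measured under its current symbol Bpnt2 and was 9.48, 9.93 and 9.21 in Wt, 9.15, 8.84 and 9.23 in Xbp1CartΔEx2, 10.27, 10.05 and 10.12 in ColXN617K and 10.53, 10.51 and 9.78 in C/X. Each collagen X mutant array was above every Xbp1CartΔEx2 array. It rose 2.29-fold in C/X versus Xbp1CartΔEx2 (1.2 ± 0.25, adjusted p = 0.00409). Without Xbp1CartΔEx2 1, 2 or 3 or C/X 1 or 2 the difference in C/X versus Xbp1CartΔEx2 was 1.07 to 1.28 and missed the criteria (adjusted p 0.0117 to 0.0244), and the mean of its 2 probes gave 1.26 (adjusted p = 0.0115).

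**Figure D3:**
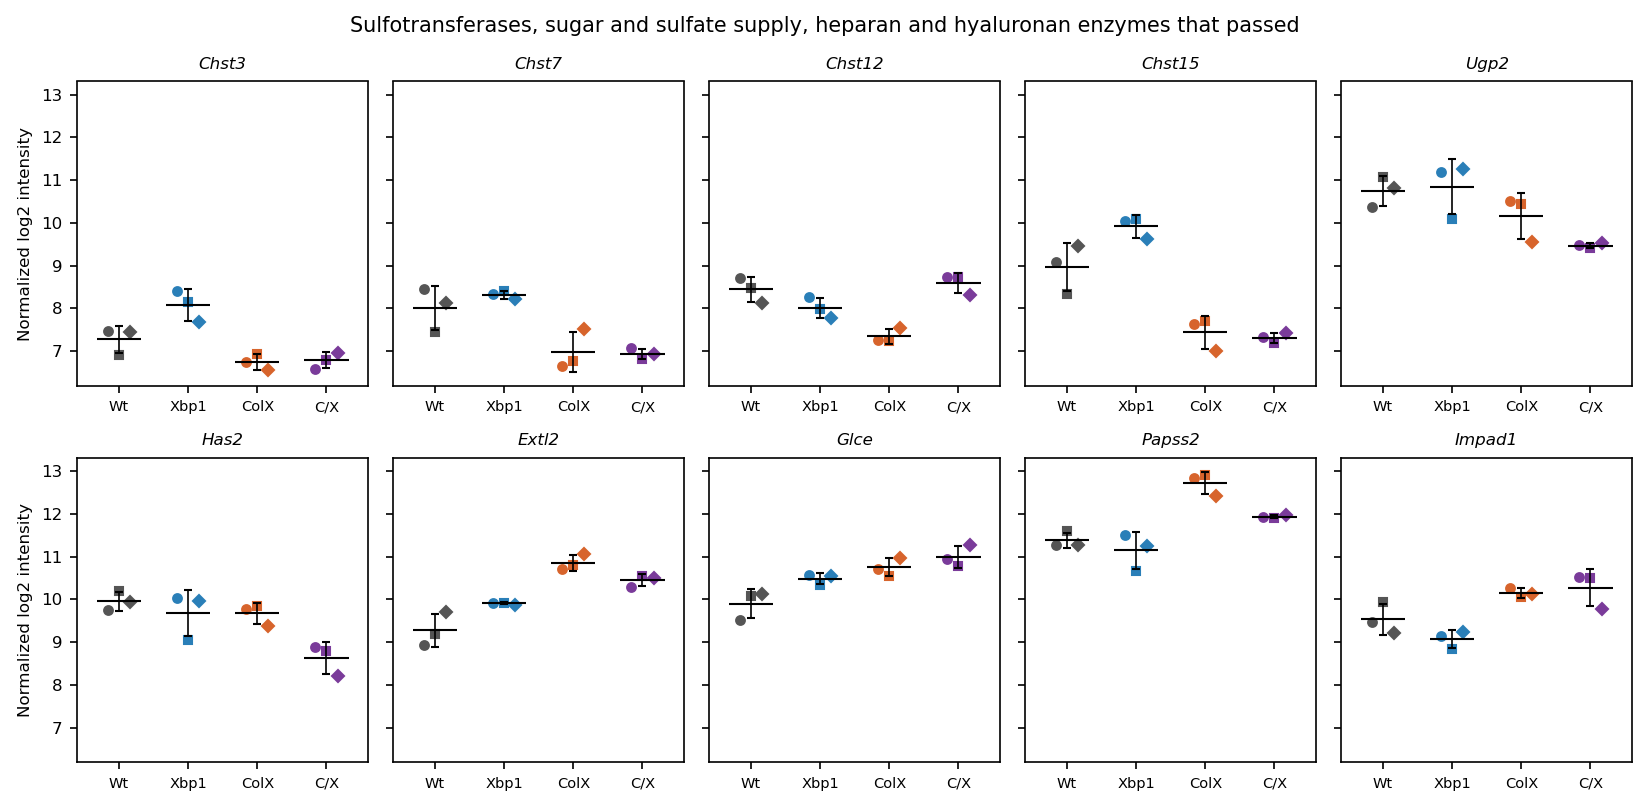
Normalized log2 intensity (y axis) on each array, by genotype (x axis), of the 10 passing enzymes outside the linker. Symbols are mice 1 (circle), 2 (square) and 3 (diamond), bars are means and whiskers 1 SD (n = 3). Chst15 is low in both collagen X mutants, Extl2 and Papss2 are high in both, and Has2 and Ugp2 are lowest in C/X.

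Set side by side, the steps had different median differences, given here as descriptions over few genes. In ColXN617K versus Wt the median was 0.60 for sulfate supply (4 genes), -0.28 for heparan (7), -0.76 for the linker (5) and -1.03 for chondroitin and dermatan modification (5), against 0.00144 over all tested probes. The same steps had medians in C/X versus Wt of 0.40, -0.03, 0.85 and -0.49, against 0.0174. For C/X versus Xbp1CartΔEx2 they were 0.55, -0.01, 0.13 and -1.29, against 0.0546, and for Xbp1CartΔEx2 versus Wt -0.30, 0.59, 0.10 and 0.31, against 0.00634. In each of these comparisons the median of chondroitin modification was the value of Chst3 or Chst7, whose probes entered the tested set only with the Xbp1CartΔEx2 arrays. It was that of Chst7 in ColXN617K versus Wt and Xbp1CartΔEx2 versus Wt, and that of Chst3 in C/X versus Wt and C/X versus Xbp1CartΔEx2. Chst3 was above background on 0 Wt and 0 C/X arrays. The linker median was negative in ColXN617K and positive in C/X, with the same Wt arrays on the other side. In C/X versus Wt B3galt6 (1.73), B4galt7 (1.06) and B3gat3 (0.85) were positive, and Xylt2 (-1.0) and Fam20b (-1.03) were negative. The positive sign thus depended on B4galt7, for which no rise is resolved, and is not read as a result. The median of chondroitin modification was negative in both, through Chst7 in ColXN617K and Chst3 in C/X. Scaling each array by its median instead of quantiles raised the median of all probes to 0.772 in ColXN617K versus Wt and to 0.396 in C/X versus Wt, so that the linker and heparan medians turned to 0.141 and 0.635 in ColXN617K versus Wt. Relative to all probes they were -0.632 and -0.137, sulfate supply 0.92 and chondroitin modification -1.06. Under that scaling the 27 passing differences all kept their sign relative to the median of all probes, but 3, 0, 0, 1 and 0 members passed in ColXN617K versus Wt, C/X versus Wt, Xbp1CartΔEx2 versus Wt, C/X versus Xbp1CartΔEx2 and ColXN617K versus C/X, with 0 for the interaction. Fewer of all probes passed too: in the same order 5.82%, 1.94%, 0.0416%, 1.03%, 0.0416% and 0.00832% were higher and 0.798%, 0.599%, 0.025%, 2.3%, 0.0998% and 0% lower. Falls in ColXN617K versus Wt shrank where the shift was not taken off, to -0.39 (adjusted p = 0.521) for Chst15 and -0.32 (adjusted p = 0.474) for B3gat3.

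Only B3gat3 and Chst12 passed the interaction (2 of 25, 8%, against 1.71% of all probes, 0.957% in the same direction), and both had a negative difference in ColXN617K versus Wt and a positive one in C/X versus Xbp1CartΔEx2, which for Chst12 did not pass. With the mouse number as a block Chst12 missed the interaction at -1.69 (adjusted p = 0.0106), and B3gat3 alone was left. For the other 23 the difference between the effects of the mutation with and without XBP1 did not pass, which does not show that the effects were alike. Chst15 fell by 1.52 with XBP1 and by 2.60 without it, with an interaction of 1.08 ± 0.41 (adjusted p = 0.13). Extl2 gave 1.04 ± 0.30 (adjusted p = 0.0569) and Xylt2 -1.05 ± 0.49 (adjusted p = 0.214), and for Chpf the interaction was -1.35 ± 0.57 (adjusted p = 0.173).

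**Figure D4:**
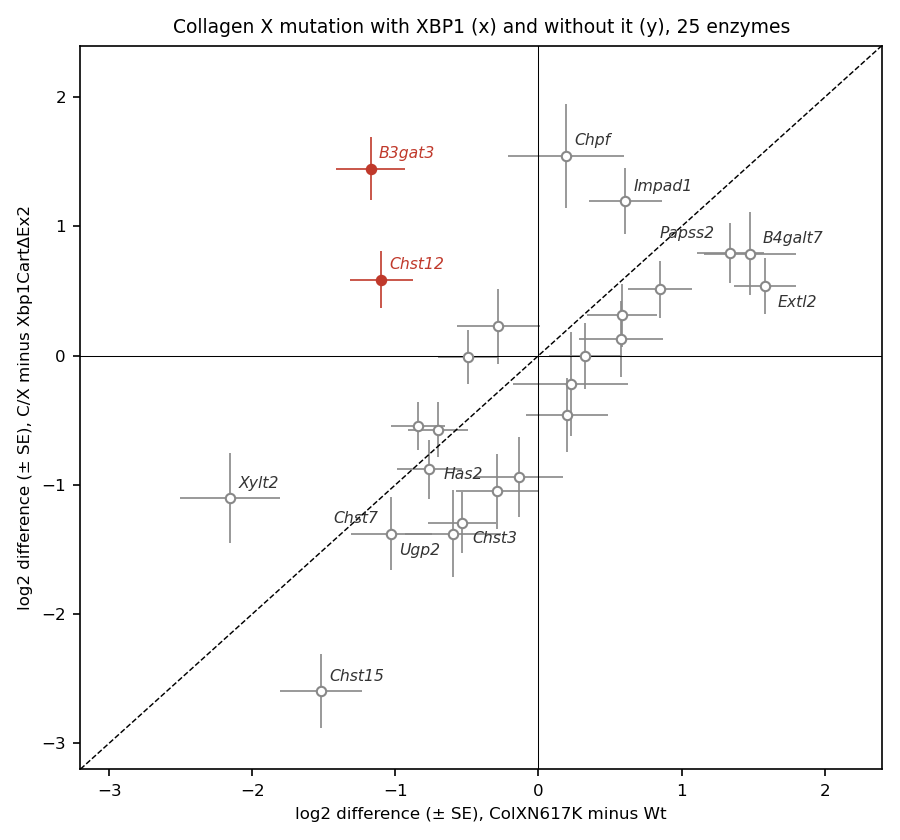
log2 difference of each of the 25 enzymes made by the collagen X mutation with XBP1 (x axis, ColXN617K minus Wt) and without it (y axis, C/X minus Xbp1CartΔEx2), from arrays that the 2 comparisons do not share, with bars of 1 standard error of the fit. The dashed line marks equal effects, and the red points, B3gat3 at -1.17 and 1.45 and Chst12 at -1.10 and 0.59, passed the interaction.

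The genes around these enzymes came from lists drawn up by function, with earlier results of these data known. Of 10 measured genes that break glycosaminoglycans down, 4 fell and 0 rose in ColXN617K versus Wt, 4 fell and 1 rose in C/X versus Wt, and 6 fell and 1 rose in C/X versus Xbp1CartΔEx2, where 7.16%, 5.21% and 7.6% of all probes fell. Cemip, which starts hyaluronan breakdown, averaged 12.16 ± 0.58 (SD) in Wt, 12.97 ± 0.24 in Xbp1CartΔEx2, 9.16 ± 1.45 in C/X and 8.73 ± 0.62 in ColXN617K. It fell in ColXN617K versus Wt (-3.44 ± 0.58, adjusted p = 0.00094), as did the heparanase gene Hpse, at least 3.26-fold since it was above background on no ColXN617K array (-2.64 ± 0.28, adjusted p = 4.4e-05), the lysosomal sulfatase gene Arsb (-2.26 ± 0.40, adjusted p = 0.00124) and the lysosomal galactosidase gene Glb1 (-1.48 ± 0.30, adjusted p = 0.00288). Hyal1, a hyaluronidase, was the one that rose in C/X versus Wt (1.57 ± 0.26, adjusted p = 0.000916). Gusb, the lysosomal glucuronidase, is among the 6 lower in C/X versus Xbp1CartΔEx2, but its probe entered the tested set through the 3 Xbp1CartΔEx2 arrays alone, so the calls of it are not read as support. It averaged 8.60 in Xbp1CartΔEx2 and 6.49 in Wt. Over genes above background in each genotype compared, 3 of 7 passed in ColXN617K versus Wt, 4 of 7 in C/X versus Wt and 5 of 8 in C/X versus Xbp1CartΔEx2, against 14%, 10.5% and 12.4% of such probes. Of the osteoclast and macrophage markers 3 of 4 were lower in ColXN617K versus Wt, 1 of 4 in C/X versus Wt and 3 of 4 in C/X versus Xbp1CartΔEx2, and of the endothelial markers 6, 6 and 7 of 8, and their part in these values was not tested.

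A list of core protein genes also held related matrix genes such as Hapln1 and Chad. Among its 20 measured genes, 1 rose and 4 fell in ColXN617K versus Wt, 3 fell in C/X versus Wt, and 1 rose and 6 fell in C/X versus Xbp1CartΔEx2, which is 25%, 15% and 35% of the 20 against 14.5%, 11.7% and 13.7% of all probes. The 6 include Hapln1 and Chad. Chad, a leucine-rich cartilage protein (-1.99 ± 0.37, adjusted p = 0.00179), and the syndecans Sdc3 (-1.71 ± 0.20, adjusted p = 8.32e-05) and Sdc2 (-1.09 ± 0.25, adjusted p = 0.00637) fell in ColXN617K versus Wt with Cspg4, a membrane chondroitin sulfate proteoglycan (-1.57 ± 0.23, adjusted p = 0.000346), and Prelp rose (1.78 ± 0.39, adjusted p = 0.00507). Cspg4 averaged 11.93 in Wt, 12.10 in C/X and 10.36 in ColXN617K, and Sdc3 13.30, 12.91 and 11.59. Both passed the interaction (2 of 20, 10%, against 1.71% of all probes), Cspg4 with -2.16 ± 0.33 (adjusted p = 0.00374) and Sdc3 with -1.61 ± 0.29 (adjusted p = 0.00795). ColXN617K had the lowest of the 4 means for both, as it had for B3gat3 and Chst12. A negative interaction makes such a low mean likely, so it is not read as a shared trait. Xylt2, Ext1 and Ndst2, which did not pass the interaction, also had their lowest mean in ColXN617K. Acan, the main cartilage proteoglycan, averaged 14.04 in Wt, 14.05 in Xbp1CartΔEx2, 13.83 in C/X and 14.08 in ColXN617K.

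Of 16 other measured genes of glycosaminoglycan synthesis, 1 rose and 2 fell in ColXN617K versus Wt and in C/X versus Wt (18.8% each, against 14.5% and 11.7% of all probes). Pxylp1, the phosphatase that removes the phosphate Fam20b adds, fell in ColXN617K versus Wt (-1.27 ± 0.27, adjusted p = 0.00408) and in C/X versus Wt (-2.38 ± 0.27, adjusted p = 7.86e-05), as did Chst1, a keratan sulfate sulfotransferase (-1.73 ± 0.20, adjusted p = 7e-05 and -1.26 ± 0.20, adjusted p = 0.000781). Among genes that supply UDP-N-acetylhexosamine, Gfpt2 rose in ColXN617K versus Wt (1.89 ± 0.30, adjusted p = 0.000555), Uap1 was at least 5.26-fold higher in C/X than in Wt (3.29 ± 0.52, adjusted p = 0.000711) and Gfpt1 was at least 7.75-fold higher in C/X than in Xbp1CartΔEx2 (3.50 ± 0.60, adjusted p = 0.00105). Extl1, a relative of Extl2 and Extl3, fell in Xbp1CartΔEx2, at 8.56 ± 0.60 (SD) against 10.65 ± 0.18 in Wt (-2.10 ± 0.28, adjusted p = 0.00156).

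**Figure D5:**
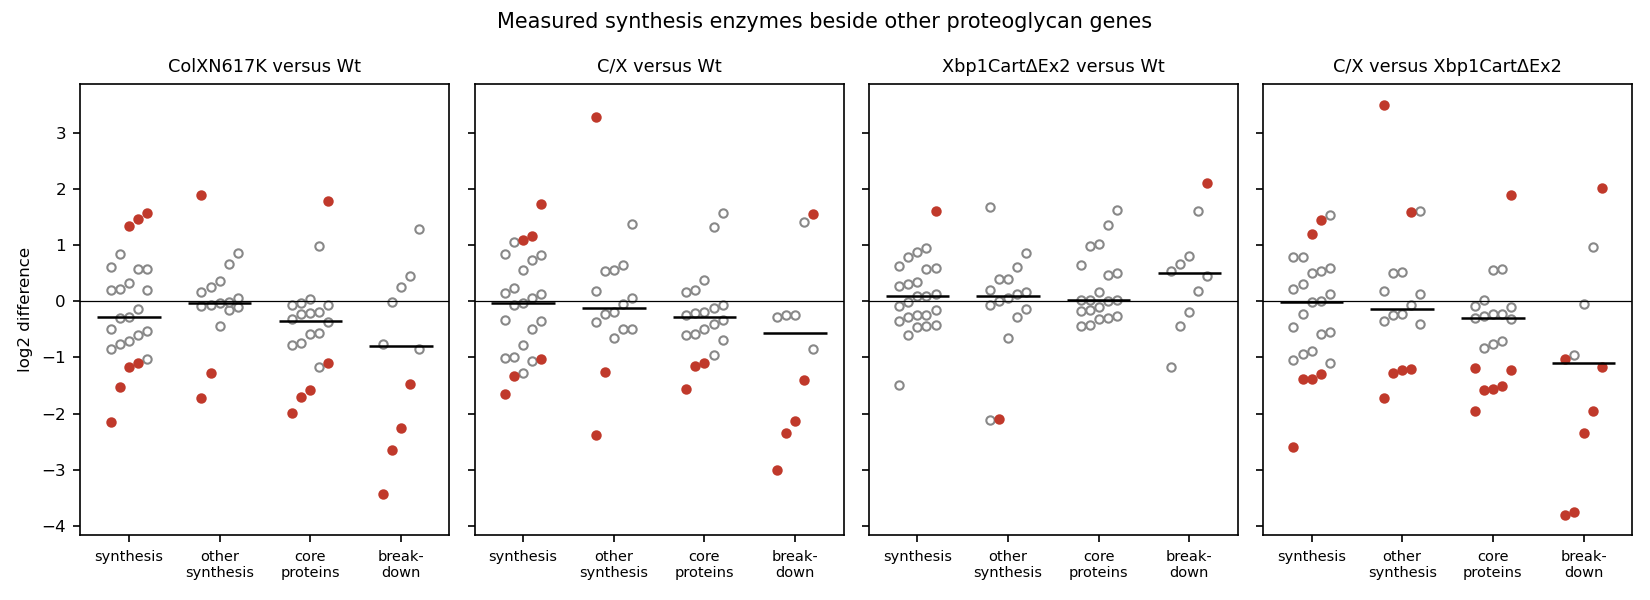
log2 difference (y axis) of each measured gene in 4 lists (x axis: the 25 synthesis enzymes, 16 other synthesis genes, 20 core proteins and related matrix genes, and 10 breakdown genes), in 4 comparisons. Filled red points passed, open points did not, and bars are medians, which for breakdown genes were -0.80, -0.57, 0.50 and -1.10 from left to right.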

How the data were processed

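RNA of 12 hypertrophic zones, 3 mice in each of 4 genotypes, was measured on 1-colour arrays with 45281 probes each. The authors deposited raw probe intensities with a detection score between 0 and 1, which is a fraction and is taken here as 1 minus the detection p-value. They also deposited normalized log2 intensities of 11338 probes, made per the study's methods with limma's neqc and a filter for 3 or more arrays above background, with probes of poor sequence match removed. Those values differed from the ones computed here by at most 0.0339 and served as an alternative. No column was without a known sample, and samples were grouped by their titles.

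Intensities were background corrected, quantile normalized and log2 transformed with neqc (limma 3.58.1, R 4.3.3, offset 16). The 12023 probes with a detection score above 0.95 on 3 or more arrays were kept. Means per genotype were fitted with lmFit and eBayes over all 12 arrays, with Benjamini-Hochberg adjusted p over all tested probes in each of 6 contrasts. Where 1 genotype of a comparison had no array above background and the other had, the fold is given as a bound. It used the lowest detected signal of each array of the undetected genotype, or the probe's own value where that was higher. Differences, standard errors and adjusted p came from the measured values. Gene symbols came from the platform annotation given for the deposited normalized values, which named 1 gene for 10069 probes and several for 5, so 2157 of the tested probes had no symbol. The other listed genes were not analysed here for lack of a named, tested probe. Where several probes of a gene were tested, the brightest over the 12 arrays stood for it, and promoters came from RefSeq.

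Members that passed in any contrast, or through another probe, are given on every array. Other members are given by group means, and other lists by up to 4 of the largest passing changes. The members and lists were chosen with earlier results of these data known. The fit was tested on simulated data. No source states a litter or batch for the mice, so p-values measure the spread between these samples. Arrays give no counts, and 3 per genotype limits the precision. Alternatives covered background correction, normalization, filter, samples fitted, array weights, moderation, probe choice, thresholds, a replicate block and leaving out each array. Every same-number correlation of deviations was above 0.1 only in ColXN617K versus C/X (0.366, 0.597 and 0.659). The number was taken as a possible pairing there, which the labels do not state, and correlations between different numbers were not compared. ColXN617K 3 and C/X 3 were also the collagen X mutant arrays with the fewest probes above background (17.1% and 17.2%). Their part in these correlations was not tested. The correlations were 0.0759, 0.329 and 0.304 in C/X versus Wt and 0.00184, 0.223 and 0.153 in ColXN617K versus Wt. They were 0.0319, -0.327 and -0.0839 in Xbp1CartΔEx2 versus Wt and 0.066, -0.00789 and -0.0732 in C/X versus Xbp1CartΔEx2, where no pairing was seen. The block was nevertheless fitted over all 4 genotypes. Its numbers are those of the titles, and some sample descriptions give other numbers.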

Additional observations from a re-analysis of the deposited data

Results flagged for a closer look

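For 5 genes the effect of the collagen X mutation differed between mice with and without XBP1 by limma's interaction test over all probes. Groups of 3 mice were not tested for outlying samples. B3gat3 had an interaction of -2.618 on the log2 scale (adjusted p = 0.00174), lower by 1.17 in ColXN617K than in Wt and higher by 1.45 in C/X than in Xbp1CartΔEx2. Chst12 had one of -1.687 (adjusted p = 0.00966) with the same directions, although its difference in C/X versus Xbp1CartΔEx2 did not pass. Its interaction missed the criteria with the mouse number as a block (adjusted p = 0.0106) and in 11 of 12 fits with 1 array left out. The core protein genes Sdc3 and Cspg4 had interactions of -1.612 (adjusted p = 0.00795) and -2.162 (adjusted p = 0.00374). Gusb had an interaction of 2.338 (adjusted p = 0.00631), but its probe entered the tested set only through the 3 Xbp1CartΔEx2 arrays and was above background on none of the other 9, so the value rests on readings near background and is not read as support.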

How the results depend on the processing

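The 27 passing differences of members were recomputed in 748 alternatives: 568 kept direction and call, 180 kept the direction and lost the call, and 0 reversed. Counts of passing members, in the order ColXN617K versus Wt, C/X versus Wt, Xbp1CartΔEx2 versus Wt, C/X versus Xbp1CartΔEx2, ColXN617K versus C/X and interaction, were 7, 6, 1, 6, 2 and 2. They were 3, 0, 0, 2, 0 and 1 with no background correction and 3, 0, 0, 1, 0 and 0 with scaling by array medians. Under the latter, fewer of all probes passed in every comparison as well. Cyclic loess gave 0 in Xbp1CartΔEx2 versus Wt and 1 in the interaction, and no filter gave 0 there, 3 in C/X versus Xbp1CartΔEx2 and 1 in the interaction. Fitting only the genotypes of a contrast gave 4 in ColXN617K versus Wt and 1 in ColXN617K versus C/X, where array weights gave 7. Trended and robust moderation left 1 in the interaction. An adjusted p of 0.05 with the fold of 2 gave 2 in Xbp1CartΔEx2 versus Wt and 6 in ColXN617K versus C/X, and with no fold minimum 12, 12, 2, 12 and 7 in the first 5 comparisons. With each array left out in turn the counts ran from 4 to 8, 2 to 9, 0 to 1, 2 to 7, 1 to 4 and 1 to 2. Leaving out both ColXN617K 3 and C/X 3, chosen after seeing the data, gave 10 in C/X versus Wt and 4 in ColXN617K versus C/X, and counting only probes above background in each genotype compared, likewise chosen later, gave 0 in Xbp1CartΔEx2 versus Wt. The cause of these changes was not tested.

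With the mouse number as a replicate block, Ugp2 in C/X versus Xbp1CartΔEx2 (adjusted p = 0.0145) and Chst12 in the interaction (adjusted p = 0.0106, leaving 1 member there) lost their calls and no other member did. No pairing by that number was seen between C/X and Xbp1CartΔEx2 or between Xbp1CartΔEx2 and Wt. Calls over all probes under the block were 1917, 1513, 205, 1756, 705 and 179, against 1740, 1410, 212, 1643, 633 and 205. Scaling by array medians put 87.9% of all calls on the higher side in ColXN617K versus Wt (50.5% in the values reported), 76.4% in C/X versus Wt (55.6%), 30.9% in C/X versus Xbp1CartΔEx2 (44.4%) and 100% of 1 call in the interaction (43.9%). The median of all probes in these was then 0.772, 0.396, 0.0574 and 0.726, against 0.00144, 0.0174, 0.0546 and -0.0143 in the values reported. A slide block was not run, since no source used here gives the slides. Probes near background, such as those of B4galt7, Chst3 and Chst7, have only bounds in some genotypes.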

Other observations

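Members also passed in comparisons only when an array was left out. Without both ColXN617K 3 and C/X 3, Ugp2, Xylt2, B4galt7, Chst7 and Ext2 passed in C/X versus Wt in addition to all of the 6 enzymes named for it but Glce. Further genes of the list of core proteins and related matrix genes changed between C/X and Xbp1CartΔEx2. Cd44, the hyaluronan receptor, fell by 1.95 on the log2 scale (adjusted p = 0.00312). Hapln1, the link protein that joins aggrecan to hyaluronan, fell by 1.51 (adjusted p = 0.00589). Neither passed against Wt. Cd44 differed from Wt by -0.59 in C/X (adjusted p = 0.294) and by 1.36 in Xbp1CartΔEx2 (adjusted p = 0.0587). For Hapln1 these differences were -0.48 (adjusted p = 0.32) and 1.02 (adjusted p = 0.0929). Has2 did not pass in C/X versus Xbp1CartΔEx2, at -1.05 (adjusted p = 0.0177). A joint change of the 3 genes was not tested.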
